A study of Mus musculus with 12 samples.

Results

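The 12 mammary arrays of this series included 6 from the genotypes labelled Stat5a-/- and Stat5ab+/null, and these 6 fell on both sides of a line drawn through the signal of Blk, a Src-family kinase of B cells. Members were chosen by that Blk signal: an array was called lymphoid-rich where it lay above log2 7.7 and lymphoid-poor otherwise. The rule placed 3 arrays on each side: Stat5a-/- 3, Stat5ab+/null 2 and Stat5ab+/null 3 were rich, and Stat5a-/- 1, Stat5a-/- 2 and Stat5ab+/null 1 were poor. Blk stood at 10.20, 10.38 and 8.08 in the rich arrays and at 6.80, 6.59 and 7.29 in the poor arrays, on the log2 scale. The members nearest the line were Stat5ab+/null 3 at 8.08 just inside and Stat5ab+/null 1 at 7.29 just outside. Because the split was made on these same arrays, differences between rich and poor arrays are given as a description with no test.

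The mammary gland of the mouse holds lymph nodes embedded in its fat pad, and a dissected piece of gland can include node tissue or leave it out. A lymph node is organised into B cell follicles, a T cell zone, sinuses lined with macrophages, and high endothelial venules through which lymphocytes enter from the blood. B cells carry surface immunoglobulin with the signalling chains Cd79a and Cd79b, and plasma cells secrete immunoglobulin in quantity.

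The study measured transcripts in mammary tissue of mice with different sets of Stat5a and Stat5b alleles, the genes of the transcription factors that relay the prolactin signal in mammary epithelium. Tissue was taken on day 6 after a mating plug from 3 mice of each of 4 genotypes, whose strains C57BL/6, FVB and 129 were mixed. By the genotype labels, both Stat5b alleles (2) and no Stat5a allele (0) were intact in Stat5a-/-, while Stat5ab+/null kept 1 allele of either gene. Stat5abnull/Stat5b- mice kept 1 Stat5a allele and 0 of Stat5b, and Stat5abnull/Stat5a- mice kept 1 Stat5b allele and 0 of Stat5a. The latter genotypes are called the single-allele arrays here, and the rule did not use them. Every group lacked at least 1 Stat5 allele, so no comparison is against intact mice, and the labels do not say in which cells an allele was lost. The labels also describe sorted cells and a PolyIC injection that activates Mx1-Cre, whereas the design text gives whole mammary tissue, and the design text was followed. Titles of the Stat5a-/- samples contain ABB and those of the Stat5ab+/null samples AAB, and such letters, read as allele counts, would contradict the genotypes given. Stat5a signal was 10.40, 10.40 and 10.10 in the arrays labelled Stat5a-/- and 9.89, 9.77 and 10.08 in those labelled Stat5ab+/null. It was therefore not lower where the gene is labelled as lost. Where the probe set lies relative to the deleted part was not known, so this value does not check the labels, and genotype names below mean the arrays so labelled.

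Values are log2 signals of Affymetrix probe sets, with 1 probe set per gene and 14198 genes past a filter on low signal. Array medians of the 6 arrays lay between 7.28 and 7.35, and the median rich minus poor difference over all genes was 0.019. Signal of the 3' end of the actin control minus its 5' end, a sign of RNA quality, was 0.16 to 0.27 in the rich arrays and 0.13 to 0.19 in the poor arrays, so the ranges overlapped. Its part in the differences below was not tested. Pairs of poor arrays correlated at Pearson's r of 0.990 to 0.994 over genes, pairs of rich arrays at 0.987 to 0.990, and pairs across the line at 0.980 to 0.990. In tissue RNA a larger number of cells of a type and more RNA per cell cannot be told apart, and this holds for every difference below.

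Most B cell genes were higher in all 3 rich arrays, among them the chains of the B cell receptor and receptors of mature B cells. Cd79a, a signalling chain of the B cell receptor, read 12.44 in Stat5a-/- 3, 12.41 in Stat5ab+/null 2 and 10.01 in Stat5ab+/null 3, against 7.07, 7.02 and 8.60 in Stat5a-/- 1, Stat5a-/- 2 and Stat5ab+/null 1. The mean was 11.62 ± 1.40 (SD, n = 3) in the rich and 7.56 ± 0.90 (SD, n = 3) in the poor arrays, a 16.6-fold difference. The groups did not overlap, and the third rich array stood closer to the poor arrays than the other rich arrays did. Ms4a1, the B cell surface protein CD20, followed the same order with 12.93, 13.14 and 10.55 against 7.74, 6.71 and 9.71, a 17.8-fold difference of means. For Cd79b the values were 12.40, 12.28 and 10.01 against 7.56, 7.18 and 8.82. In these genes Stat5ab+/null 1, the poor array with the most Blk, was also the highest of the poor arrays, so the line cuts a graded series at a point between Stat5ab+/null 1 and Stat5ab+/null 3.

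**Figure D1:**
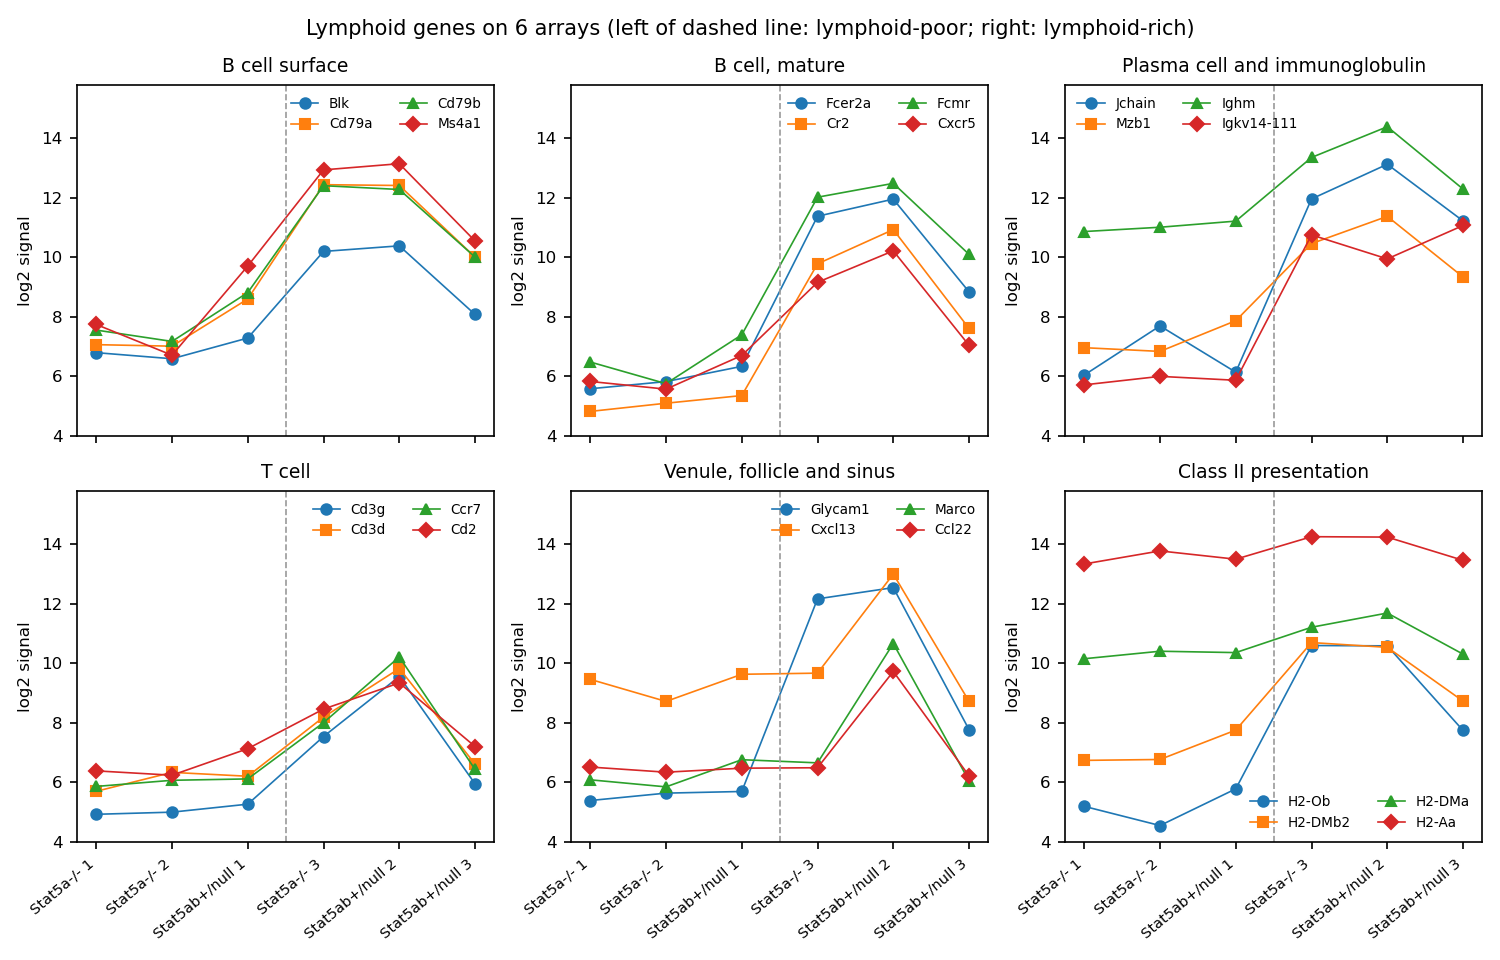
Log2 signal (vertical axes) of 24 lymphoid genes in 6 panels on the 6 arrays, with the 3 lymphoid-poor arrays left of the dashed line and the 3 lymphoid-rich arrays right of it; each point is 1 array and the lines only join the points of a gene. Cd79a, Cd79b, Ms4a1 and Jchain were higher in all 3 rich arrays, while Cxcl13, Marco and Ccl22 stood apart in Stat5ab+/null 2 alone.

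Of the 28 genes listed for B cell surface and signalling, 23 passed the filter. One of them is Blk, which set the classes. Of the other 22, 21 had a difference above 0 and 19 did not overlap between rich and poor arrays, with the rich arrays higher. Of all genes 11.2% did not overlap in that direction and 8.78% in the other. Because the rule used this contrast, these shares stand as a background to the count here and to the counts of the lists that follow, and nothing is read from any of them. The median difference of the 22 was 2.95 on the log2 scale, against 0.019 over all genes. Fcmr, the receptor for IgM, read 12.02, 12.48 and 10.10 in the rich arrays and 6.48, 5.76 and 7.40 in the poor arrays, a difference of 4.99. Fcer2a, the low-affinity IgE receptor CD23, differed by 4.81 and Cr2, the complement receptor of follicular B cells, by 4.35, from poor means of 5.92 and 5.10 that lay below the filter level of 6.04, where a difference is not a calibrated fold. These were high in all 3 rich arrays, with Stat5ab+/null 3 the lowest of the 3 in each.

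Transcription factors and guidance receptors of the B lineage were also higher, with 3 exceptions on the list. Pou2af1, the B cell coactivator of octamer-binding factors, read 10.94, 11.12 and 7.96 against 5.37, 5.37 and 7.20, and the difference was 4.03. Spib, an Ets factor of B cells, differed by 3.12, Cxcr5, the receptor that guides B cells into follicles, by 2.77, and Cd22, an inhibitory co-receptor, by 3.16. The adaptor Blnk and the surface protein Ly6d overlapped between rich and poor arrays, and Ebf1, an early B cell factor, was the only list member with a difference below 0, at -0.58. Another probe set of Ebf1 had a difference of 0.18. Ly6d was not split by lymphoid class: it read 8.69, 7.85 and 9.43 in the Stat5a-/- arrays and 11.38, 10.76 and 11.01 in the Stat5ab+/null arrays, so its groups separated by genotype label.

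Pou2af1 acts with octamer-binding proteins at the sequence ATGCAAAT, so the 250 bases before each start site were searched for these letters on both strands, in RefSeq windows of GRCm38.p6. Of the 23 measured B cell genes 17 had a window, and 2 of the 17 (11.8%) held the octamer. It was in 0 of 10 plasma cell and germinal centre genes with a window, and in 490 of 27025 genes of the whole table (1.81%). The 2 genes were Blnk, at chr19:40994222-40994471 on the minus strand, and Vpreb3, a protein of the pre-B cell receptor complex, at chr10:75948050-75948299 on the plus strand. Both windows are shown 5′ to 3′ because they are the B cell promoters in which the letters were found, with the octamer in capitals in its opposite-strand form ATTTGCAT.
Blnk: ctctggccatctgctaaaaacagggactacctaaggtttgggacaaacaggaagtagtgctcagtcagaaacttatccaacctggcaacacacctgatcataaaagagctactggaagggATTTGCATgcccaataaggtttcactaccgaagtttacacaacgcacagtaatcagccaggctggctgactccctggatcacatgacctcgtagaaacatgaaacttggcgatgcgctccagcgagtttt
Vpreb3: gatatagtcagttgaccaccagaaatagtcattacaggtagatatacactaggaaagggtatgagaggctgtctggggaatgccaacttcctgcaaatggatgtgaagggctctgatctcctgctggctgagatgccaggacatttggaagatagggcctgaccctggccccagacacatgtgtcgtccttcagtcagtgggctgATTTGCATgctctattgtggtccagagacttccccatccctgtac
The octamer lay 130 to 123 bases before the start site in Blnk and 45 to 38 bases before it in Vpreb3. Vpreb3 read 9.38, 9.25 and 8.00 in the rich arrays and 7.21, 6.94 and 6.70 in the poor arrays. Blnk read 10.87, 11.18 and 9.43 against 9.30, 8.96 and 9.51, so the rich array Stat5ab+/null 3 lay below the poor array Stat5ab+/null 1. A match is a description of the letters and no evidence of a bound site.

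Jchain, the joining chain of secreted IgM and IgA, had the largest difference of means among named genes whose groups did not overlap. Each gene was represented by its probe set of highest mean. Jchain read 11.96, 13.12 and 11.22 in the rich arrays and 6.05, 7.7 and 6.14 in the poor arrays, a difference of 5.47 or 44.4-fold. Unlike the B cell receptor chains, Jchain in Stat5ab+/null 3 was within 1 log2 unit of Stat5a-/- 3. High Jchain was not particular to the rich arrays. In the single-allele arrays, where Blk was 5.54 to 6.62, Jchain read 9.93 to 12.13, above every poor array. Igkv14-111, by contrast, read 5.35 to 6.67 there. Those arrays also differ from the classed ones in control signals given below, and the part of this in their levels was not tested. Of 14 immunoglobulin genes measured, 11 did not overlap and were higher in the rich arrays. Igkv14-111, a kappa variable segment, read 10.75, 9.95 and 11.07 against 5.72, 6.00 and 5.87, with its highest value in Stat5ab+/null 3. Iglv1, a lambda variable segment, instead was lowest in that array among the rich, at 9.61, 11.12 and 7.85 against 5.49, 5.58 and 6.30. Ighm, the IgM heavy chain, read 13.35, 14.38 and 12.29 against 10.86, 11.01 and 11.21, a difference of 2.31. All 8 other Ighm probe sets past the filter were also higher without overlap, with differences from 0.68 to 6.60, and 4 of them, at 5.83 to 6.60, exceeded that of Jchain. Igha, the IgA heavy chain, was one of the 3 that overlapped, with 7.23, 10.03 and 7.25 against 6.51, 8.80 and 6.14; the others were Igkv19-93 and Igkv6-15. Variable segments of the same family resemble one another, so a probe set named for a segment can read its relatives, which was not tested.

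Of the 18 listed plasma cell and germinal centre genes, 12 were measured, 4 did not overlap and were higher, 1 did not overlap and was lower, beside 11.2% and 8.78% of all genes, and the list's median was 0.29. Mzb1, a chaperone of immunoglobulin secretion, read 10.46, 11.37 and 9.34 against 6.97, 6.84 and 7.87. Irf4, a factor that plasma cells share with other immune cells, differed by 0.55. Bcl6, which drives the germinal centre programme and is also made in other tissue cells, read 7.90, 9.12 and 7.14 against 8.35, 9.03 and 8.50, so its groups overlapped.

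Most T cell genes had higher means in the rich arrays too, and their list medians ordered these arrays as the B cell medians did. Cd3g, a chain of the T cell receptor complex, read 9.56 in Stat5ab+/null 2, 7.54 in Stat5a-/- 3 and 5.95 in Stat5ab+/null 3, against 4.93, 5.00 and 5.27 in the poor arrays. Ccr7, the receptor that guides T cells and dendritic cells into nodes, read 10.21, 8.01 and 6.44 in the same order, against 5.87, 6.07 and 6.12. Stat5ab+/null 2 was far above the other arrays, and Stat5ab+/null 3 lay just above the poor arrays. Of 18 measured T cell genes, 17 had a difference above 0 and 6 did not overlap with the rich arrays higher (11.2% of all genes), with a median of 0.65. Stat5ab+/null 2 was the highest of the 6 arrays in 17 of the 18, and Stat5ab+/null 3 was above every poor array in 6. Measured against the mean of the poor arrays, the median T cell gene was 1.39 higher in Stat5ab+/null 2, 0.69 in Stat5a-/- 3 and 0.060 in Stat5ab+/null 3. For the B cell list, Blk included, the same medians were 3.82, 3.32 and 1.47.

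**Figure D2:**
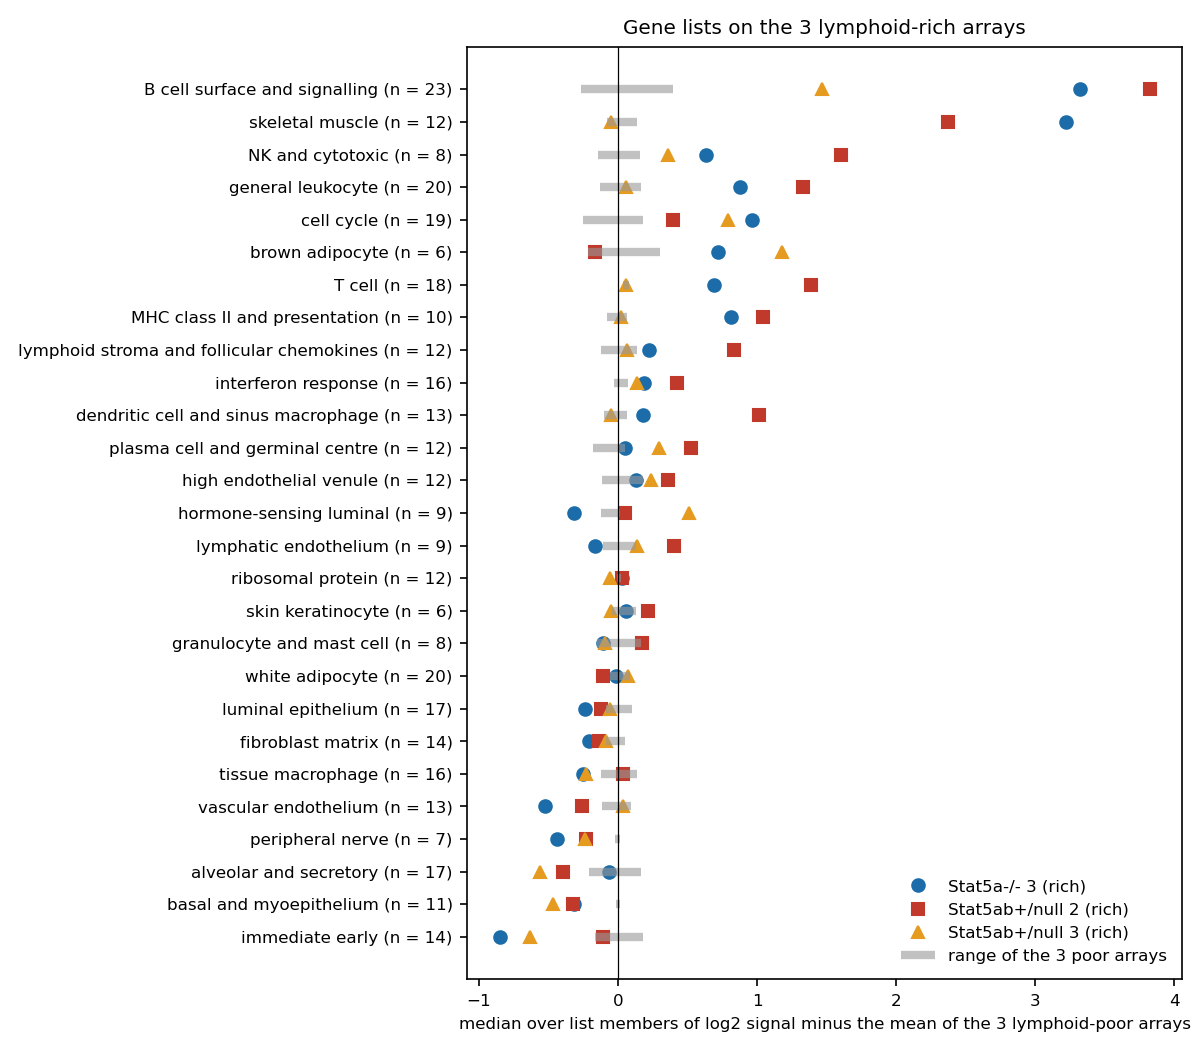
Each row is a gene list with the number of its measured members, and the horizontal axis is the median over members of the log2 signal minus the mean of the 3 poor arrays; coloured points are the 3 rich arrays and the grey bar spans the poor arrays. The B cell list lay 1.47 to 3.82 above the poor mean on all 3 rich arrays, and the skeletal muscle list was high on Stat5a-/- 3 and Stat5ab+/null 2 only.

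Cytotoxic and general leukocyte genes ordered the arrays as the T cell genes did. All 8 measured NK and cytotoxic genes were highest in Stat5ab+/null 2, 6 did not overlap (11.2% of all genes), and the list's median difference was 0.98. Nkg7, a granule protein of cytotoxic cells, read 9.00, 11.05 and 8.23 against 7.68, 7.98 and 7.81. Of 20 general leukocyte genes all 20 had a difference above 0 and 8 did not overlap, and the median was 0.74. Ptprc, the leukocyte common antigen CD45, read 12.39, 12.74 and 11.25 against 11.15, 10.95 and 11.23, so Stat5ab+/null 3 barely exceeded the highest poor array. Ltb, the lymphotoxin chain by which lymphocytes maintain node stroma, read 11.47, 12.20 and 9.35 against 8.32, 8.26 and 8.66.

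Genes of class II antigen presentation were higher by unequal amounts. H2-Ob, the B cell chain of the peptide-loading regulator H2-O, read 10.60, 10.59 and 7.75 against 5.20, 4.55 and 5.78, a difference of 4.46. Its partner H2-Oa differed by 3.27 and H2-DMb2, a chain of the peptide-loading factor H2-M, by 2.90. Ciita, the master regulator of class II transcription, differed by 1.52. H2-Aa, a class II chain present on many presenting cells, read 14.25, 14.24 and 13.46 against 13.33, 13.77 and 13.49, and its groups overlapped. All 10 measured genes of this list had a difference above 0 and 4 did not overlap (11.2% of all genes in this direction), with a median of 0.60. The list's median offset from the poor mean was 0.81 in Stat5a-/- 3 and 1.04 in Stat5ab+/null 2 but 0.024 in Stat5ab+/null 3. In that last array 4 of the 10 genes were above every poor array.

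Glycam1, a mucin-like ligand for L-selectin made by high endothelial venules and, in late pregnancy and lactation, by mammary epithelium, had a difference of 5.25. It read 12.16 in Stat5a-/- 3, 12.54 in Stat5ab+/null 2 and 7.77 in Stat5ab+/null 3, against 5.39, 5.64 and 5.70 in the poor arrays. The poor arrays averaged 5.58 ± 0.16 (SD, n = 3), below the filter level of 6.04, so the difference is not a calibrated fold, and Stat5ab+/null 3 was nearer to them than to the other rich arrays. The remaining venule genes did not show a difference of this size. Of 12 measured on that list, 4 did not overlap and were higher, 2 did not overlap and were lower (11.2% and 8.78% of all genes), and the median was 0.22. Madcam1, an addressin of venules, read 7.88, 8.68 and 7.87 against 7.41, 7.76 and 7.42, and Chst2, a sulphotransferase that builds selectin ligands, 8.09, 7.90 and 8.41 against 7.30, 7.45 and 7.73. Cd34 and Ackr1, which other vessels also carry, were lower by 0.32 and 0.25: Cd34 read 12.16, 12.30 and 12.08 against 12.57, 12.41 and 12.52. Fut7, Fut4, St6gal1, Gcnt1, Selp, Slco2a1 and Podxl had differences between -0.36 and 0.51, and of Slco2a1 other probe sets pointed the other way at -0.21 and -0.033.

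Among genes of the follicle, sinus and dendritic cells, 3 were high in Stat5ab+/null 2 alone. Cxcl13, the chemokine that draws B cells into follicles, read 13.00 in Stat5ab+/null 2 and between 8.72 and 9.67 in the other 5 arrays. Marco, a scavenger receptor of sinus and marginal zone macrophages, read 10.66 there and 5.85 to 6.76 elsewhere. Ccl22, a chemokine of mature dendritic cells, read 9.73 there and 6.22 to 6.52 elsewhere. The rich arrays Stat5a-/- 3 and Stat5ab+/null 3 lay in or close to the range of the poor arrays for these 3 genes. Of 13 measured dendritic cell and sinus macrophage genes 10 were highest in Stat5ab+/null 2, and 3 did not overlap, where 11.2% of all genes did so in the higher direction. Batf3, a transcription factor of dendritic cells, was one of them, at 8.58, 9.58 and 8.84 against 8.14, 8.33 and 8.46. Lymphoid stroma genes did not overlap in 3 of 12 in the higher direction and in 1 in the lower, and lymphatic endothelium genes in 2 and 1 of 9, against 11.2% and 8.78% of all genes. Bst1, a surface enzyme of bone marrow and lymphoid stroma, was higher in all 3 rich arrays, at 6.95, 7.46 and 6.07 against 5.53, 5.50 and 5.91. Stab2, a scavenger receptor of sinus endothelium, read 7.92, 9.15 and 7.17 against 7.03, 6.89 and 7.00, and Mmrn1, a lymphatic vessel gene, read 7.94 in Stat5ab+/null 2 and at most 6.44 elsewhere.

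Of 16 tissue macrophage genes measured, 3 had a difference above 0 and the median was -0.21. Without overlap 1 was higher and 2 were lower, near the shares of all genes (11.2% and 8.78%). Cd163, the haemoglobin scavenger receptor of resident macrophages, read 9.45, 10.09 and 9.87 against 10.89, 10.52 and 11.01. Of 8 measured granulocyte and mast cell genes, 4 had a difference above 0, 3 did not overlap and were higher, and the median was 0.014. The 3 were the calcium-binding proteins S100a8 and S100a9, and Camp, which differed by only 0.17. S100a9 read 8.18, 8.38 and 8.09 against 6.42, 6.97 and 6.77, whereas mast cell genes such as Cpa3 and Mcpt4 differed by -0.20 and -0.24.

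Over all 14198 genes, 1591 did not overlap and were higher in the rich arrays (11.2%) and 1247 did not overlap and were lower (8.78%). With a difference of at least 1 on the log2 scale as well, 150 were higher (1.06%) and 16 were lower (0.113%). Of the 150, 45 stood on a list of lymphoid or leukocyte genes, and 11 were immunoglobulin genes, of 14 measured. These sets overlap, since Ighm is in both. The cell cycle list gave 3 of its 19 measured genes and the muscle list 3 of its 12. Because the rule used this contrast, nothing is read from these counts. Among the 150 the highest value lay in Stat5ab+/null 2 for 107, in Stat5a-/- 3 for 38 and in Stat5ab+/null 3 for 5. Both genotypes hold rich and poor arrays, so a gene whose groups do not overlap has the same sign within each by construction. For 36 of the 150 the poor mean was below the filter level of 6.04, and a fold from so low a signal is not calibrated. Without Stat5ab+/null 3 the count of higher genes was 275. Without Stat5a-/- 2 and without Stat5ab+/null 2 the count of lower genes was 40 and 43.

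Cell cycle genes were higher in every rich array, with an order of their own. Of 19 measured, all 19 had a difference above 0 and 17 did not overlap (11.2% of all genes in this direction), with a median of 0.73. Rrm2, a subunit of the enzyme that makes deoxynucleotides, read 10.03, 9.25 and 9.16 against 7.90, 8.63 and 8.35. Top2a, the topoisomerase of dividing cells, read 10.49, 9.80 and 9.96 against 8.68, 9.24 and 9.20. Stat5a-/- 3 was the highest array in 17 of the 19, and Stat5ab+/null 2, which led the lymphocyte lists, in none. Against the poor mean the median gene was 0.96 higher in Stat5a-/- 3, 0.79 in Stat5ab+/null 3 and 0.39 in Stat5ab+/null 2.

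Skeletal muscle genes were high in 2 of the 3 rich arrays. Myh4, a fast myosin heavy chain, read 9.66 in Stat5a-/- 3, 8.40 in Stat5ab+/null 2 and 5.49 in Stat5ab+/null 3, against 4.98, 4.91 and 5.62. Ckm, the muscle creatine kinase, read 10.82, 9.87 and 6.98 against 6.84, 6.48 and 6.98, and another of its probe sets differed by only -0.015. All 12 measured muscle genes were highest in Stat5a-/- 3 and above every poor array in Stat5ab+/null 2, while the median in Stat5ab+/null 3 was -0.051 from the poor mean. The arrays with the most B cell signal thus also held the most muscle signal. In Stat5ab+/null 3 the B cell list was 1.47 above the poor mean. The part of accompanying muscle in the lymphoid differences was not tested.

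Several brown fat genes, leptin and most immediate early genes joined a different pair of rich arrays. Ucp1, the uncoupling protein of brown and beige adipocytes, read 9.44 in Stat5a-/- 3 and 11.16 in Stat5ab+/null 3 but 6.90 in Stat5ab+/null 2, against 6.43, 8.06 and 6.94. Elovl3, a fatty acid elongase of the same cells, read 11.69, 11.85 and 8.60 in that order, against 8.59, 9.83 and 7.97. Lep, the white adipocyte hormone leptin, read 9.45 and 9.81 in that pair, 11.46 in Stat5ab+/null 2, and 11.48, 11.80 and 11.55 in the poor arrays. Stat5ab+/null 2 lay in or next to the range of the poor arrays in all 3 genes. Of 6 measured brown adipocyte genes 1 did not overlap and was higher (11.2% of all genes), and the list's median was 0.72. In Stat5a-/- 3 and in Stat5ab+/null 3, 4 of the 6 were above every poor array. Dio2 and Ppargc1a of the same list were not, with rich minus poor differences of 0.020 and -0.0093. Nnat, a membrane protein of fat cells and neurons, had the largest difference of means in the lower direction among named genes without overlap, at -2.89. It read 7.80, 11.36 and 8.73 against 12.41, 11.37 and 12.78. Its value in Stat5ab+/null 2 was 11.36 and in Stat5a-/- 2 11.37, so the groups only just failed to overlap.

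**Figure D3:**
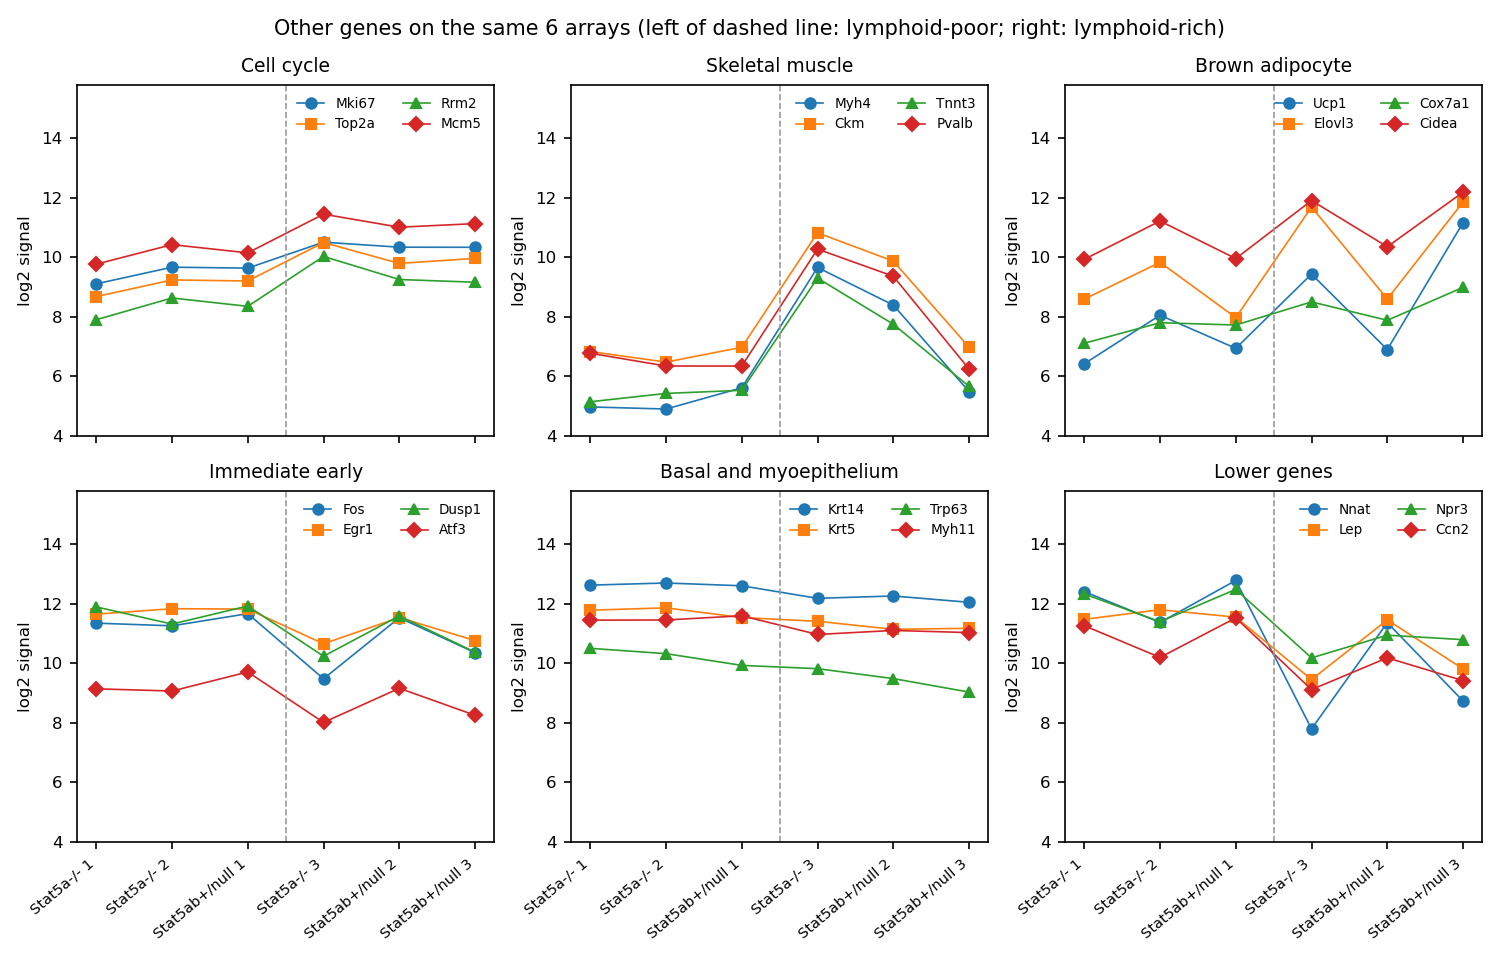
Log2 signal (vertical axes) of 24 genes of other programmes on the same 6 arrays, with the lymphoid-poor arrays left of the dashed line and the lymphoid-rich arrays right of it; each point is 1 array and the lines only join the points of a gene. Muscle genes were high in Stat5a-/- 3 and Stat5ab+/null 2, whereas Ucp1 and Elovl3 were high, and Lep, Nnat and Fos low, in Stat5a-/- 3 and Stat5ab+/null 3.

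The immediate early genes, which respond within minutes to stimuli that include handling of tissue, had a median difference of -0.51. Fos read 9.48 in Stat5a-/- 3 and 10.36 in Stat5ab+/null 3, 11.53 in Stat5ab+/null 2, and 11.35, 11.26 and 11.67 in the poor arrays. Dusp1, a phosphatase of the same response, read 10.24, 10.37 and 11.59 in that order, against 11.89, 11.32 and 11.92. Of 14 measured, 3 did not overlap and were lower (8.78% of all genes). The 20 white adipocyte genes had a median of -0.016, and 2 did not overlap, both lower, so the list as a whole did not follow Lep.

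Basal and myoepithelial genes were lower in the rich arrays. All 11 measured had a difference below 0 and 9 did not overlap, with a median of -0.36, where 8.78% of all genes did not overlap in that direction. Krt14, a keratin of basal cells, read 12.18, 12.26 and 12.05 against 12.62, 12.70 and 12.60, a 1.39-fold difference. Trp63, the basal transcription factor, read 9.82, 9.49 and 9.03 against 10.50, 10.32 and 9.93. The list's median offset from the poor mean was -0.32 in Stat5a-/- 3, -0.32 in Stat5ab+/null 2 and -0.47 in Stat5ab+/null 3, so the array with the least B cell signal among the rich arrays was the lowest. For Mylk another probe set differed by 0.012.

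Several other tissue lists had medians below 0, by less. Luminal epithelium had 6 of 17 genes lower without overlap and a median of -0.10, and alveolar and secretory genes 3 of 17 and -0.30. Of all genes 8.78% were lower without overlap, a background to each lower count here. The alveolar list's median offset from the poor mean was -0.0077, 0.17 and -0.061 in Stat5a-/- 1, 2 and 3, the last a rich array. It was -0.21, -0.40 and -0.56 in Stat5ab+/null 1, 2 and 3, the first a poor array. These offsets separated by genotype label, and the part of genotype in the alveolar difference was not tested. Elf3, an epithelial Ets factor, read 7.87, 8.58 and 8.16 against 8.94, 8.59 and 9.27, and Xdh, a protein of milk fat secretion, 11.08, 11.59 and 11.26 against 12.06, 12.01 and 11.88. Fibroblast matrix had 7 of 14 lower and a median of -0.15, vascular endothelium 4 of 13 and -0.26, and peripheral nerve 4 of 7 and -0.30. The endothelium list's median offset from the poor mean was -0.53 in Stat5a-/- 3, -0.26 in Stat5ab+/null 2 and 0.033 in Stat5ab+/null 3. Stat5a-/- 3 was the lowest of the 6 arrays in 11 of its 13 genes. Mbp, a myelin protein, read 11.58, 11.65 and 11.89 against 12.76, 12.48 and 12.65, although another probe set of it differed by 0.029. Hormone-sensing luminal genes had a median of 0.15 and 2 of 9 lower without overlap, skin keratinocyte genes 0.020 with none of 6 apart, and ribosomal protein genes 0.022 with 2 of 12 lower. Of 16 measured interferon response genes 10 did not overlap and were higher (11.2% of all genes), and the list's median was 0.30. Cxcl10, a chemokine induced by interferon, had the largest difference of the list, at 7.27, 8.77 and 7.25 against 6.86, 7.02 and 7.19. PolyIC, which the labels mention, induces interferon genes, and whether it bears on this list was not tested.

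Whether the same genes go with Blk in other mammary samples was tested in the 6 single-allele arrays, with limma and genotype as a further term. Blk there ran from 5.54 to 6.62, and only the highest of the 6 exceeded the lowest poor array at 6.59. It lay below the filter level of 6.04 except in Stat5abnull/Stat5a- 1 at 6.62 and Stat5abnull/Stat5b- 3 at 6.06. With Blk so low, the slopes below, called or not, cannot decide whether genes go with lymphoid content. As a set the single-allele arrays stand apart in control signals. Their actin 3' minus 5' signal was 2.16 to 3.78 and that of Gapdh 1.11 to 3.91, against 0.13 to 0.27 and -0.10 to 0.052 in the classed arrays. Their hybridization controls averaged 12.99 to 13.65, against 11.92 to 12.30 in the classed arrays. Whether RNA quality or another difference between the sets lies behind these gaps was not tested. The part of these gaps in the levels and slopes below was not tested across the sets. The single-allele arrays span 1.08 log2 units of Blk against 3.79 in the arrays that were classed. No gene of 14197 was called at an adjusted p under 0.05 in either direction (0% called), and 554 (3.90%) had an unadjusted p under 0.05. The smallest adjusted p-values were 0.134 for Lef1, a T cell transcription factor, with a slope of 4.11 ± 0.46 (SE) log2 units per unit of Blk, and 0.146 for Glycam1, with 4.60 ± 0.57 (SE), by limma with Benjamini-Hochberg adjustment. Lef1 was chosen for mention after its value was seen. Both rest mainly on the array Stat5abnull/Stat5a- 1, where Glycam1 read 11.96 against 5.15 to 7.75 in the other 5 and Lef1 11.44 against 6.64 to 8.08. Without that array the slope of Glycam1 was 2.36 (adjusted p = 0.796) and that of Lef1 2.61 (adjusted p = 0.664), while the adjusted p of Glycam1 over all alternatives ran from 0.0255 to 1.00 and that of Lef1 from 0.0632 to 1.00, again by limma.

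**Figure D4:**
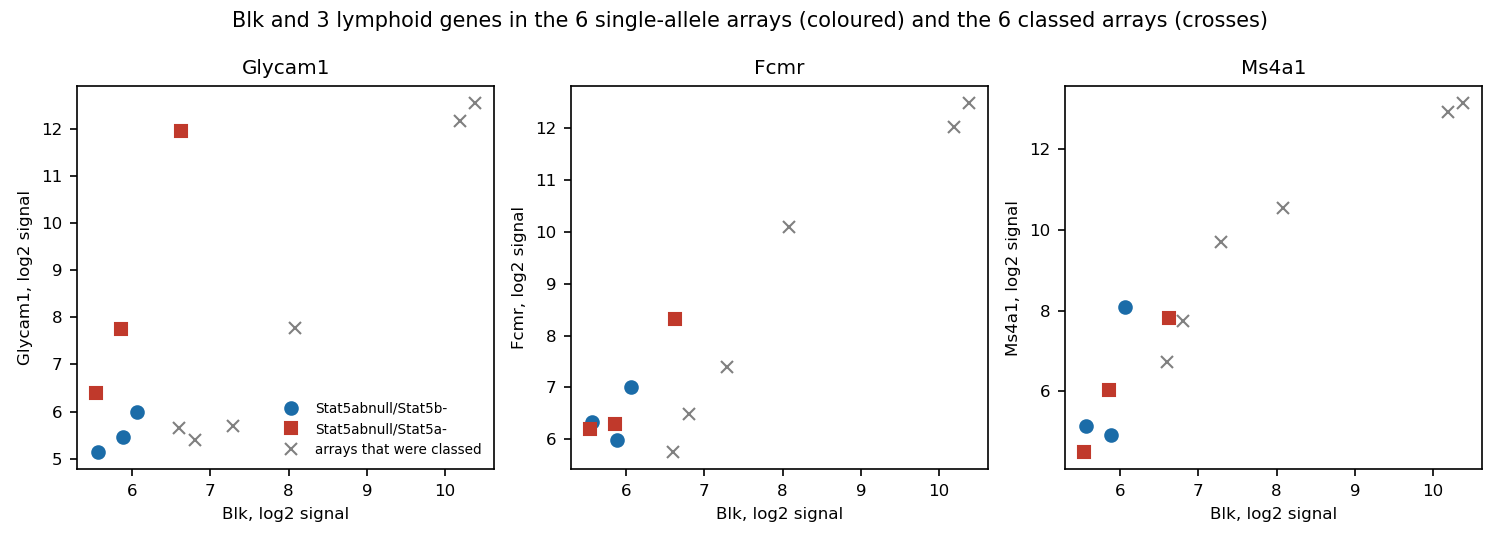
Log2 signal of Glycam1, Fcmr and Ms4a1 (vertical axes) against that of Blk (horizontal axis); coloured points are the 6 single-allele arrays by genotype and grey crosses the 6 arrays that were classed. The single-allele arrays span Blk values of 5.54 to 6.62, and 1 of them, Stat5abnull/Stat5a- 1, had Glycam1 at 11.96.

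Direction in the single-allele arrays is given by counts. Of the 149 genes other than Blk that were higher by at least 1 without overlap, 101 (67.8%) had a slope above 0, against 7104 of all 14197 genes tested. Of 22 B cell genes 18 had a slope above 0, with a median of 0.65, and of 18 T cell genes 16, with a median of 1.32. Fcmr read 8.33 in Stat5abnull/Stat5a- 1 and 5.99 to 7.01 elsewhere, and Ms4a1 was highest in Stat5abnull/Stat5b- 3 at 8.08. Muscle went the other way from the classed arrays: 0 of 12 genes had a slope above 0 and the median was -3.42. Stat5abnull/Stat5a- 1 also had the highest actin 3' minus 5' signal, 3.78 against 2.16 to 3.07 in the other 5. That signal ranked all the single-allele arrays in the same order as Blk. With it as a further term the median slope was -1.52 for B cell genes and -0.46 for T cell genes, so the direction of both turned. The parts of Blk and of the actin 3' minus 5' signal in these slopes cannot be told apart. Without Stat5abnull/Stat5b- 2, Glycam1 alone was called (adjusted p = 0.0255). Without Stat5abnull/Stat5a- 1, 36 genes were called, all with slopes below 0, among them the muscle genes Myoz1, Myot and Ampd1, which were chosen for mention after the calls were seen.

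Of the 3 Stat5a-/- arrays 1 was rich, and of the 3 Stat5ab+/null arrays 2 were, so the class was not balanced over these genotypes. The genotype difference was fitted with limma without the class and with it as a term. Over all genes the median standard error was 0.134 without and 0.124 with the class, the standard error was lower with it in 7260 of 14198, and the sign of the difference changed in 1699. For genes chosen for their gap between rich and poor arrays, a class term lowers the standard error and shifts the difference by construction, so their values are given as a description. Glycam1 moved from -0.94 ± 2.30 (SE) to 0.91 ± 1.25 (SE), Jchain from -1.59 ± 2.09 (SE) to 0.26 ± 0.65 (SE), and Cd79a from -1.50 ± 1.62 (SE) to -0.17 ± 0.81 (SE). None of these was called in either fit.

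**Figure D5:**
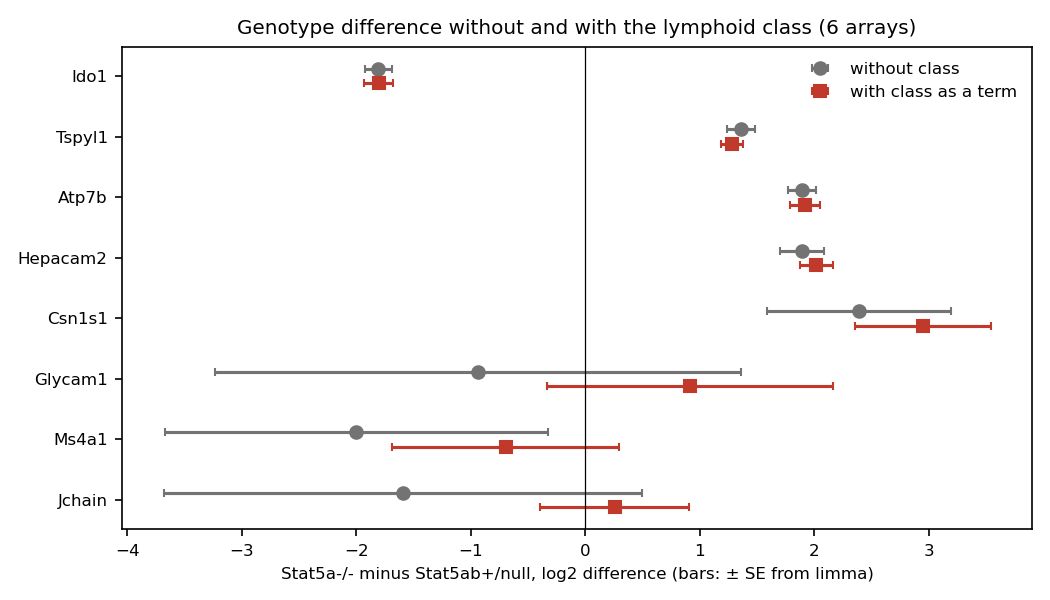
Stat5a-/- minus Stat5ab+/null difference in log2 signal (horizontal axis) of 8 genes from limma on 6 arrays, without the lymphoid class (grey circles) and with it as a term (red squares); bars are ± SE. The differences of Glycam1 and Jchain changed sign with the class, and that of Ido1 stayed at -1.81.

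The genotype fit with the class called 4 of 14198 genes at an adjusted p under 0.05 (0.0282%), and the fit without it called 2 (0.0141%). At an unadjusted p under 0.05 the numbers were 2211 (15.6%) and 1726 (12.2%). Atp7b, a copper transporter, read 8.43, 8.55 and 8.63 in Stat5a-/- and 6.62, 6.49 and 6.84 in Stat5ab+/null, and its difference was 1.92 ± 0.13 (SE) with the class and 1.89 ± 0.12 (SE) without it (limma, adjusted p = 0.0256 and 0.0111). Ido1, an enzyme that breaks down tryptophan, read 6.48, 6.35 and 6.60 against 8.40, 8.34 and 8.12, a difference of -1.81 in both fits with the same adjusted p-values by limma. Groups did not overlap in either gene, and neither followed the lymphoid class. Hepacam2 read 9.10, 9.25 and 9.82 against 7.43, 7.47 and 7.59, and was called with the class at 2.02 ± 0.15 (limma, adjusted p = 0.0256) but not without it at 1.89 ± 0.19 (adjusted p = 0.0915). Tspyl1 was called with the class at 1.28 ± 0.10 (limma, adjusted p = 0.0256), but with the probe set chosen over these 6 arrays alone the difference was 0.084 (adjusted p = 0.868). Csn1s1, a milk casein under Stat5 control, differed by 2.95 ± 0.59 (SE) with the class (limma, adjusted p = 0.212) and by 2.39 ± 0.80 (SE) without it. The number of calls with the class fell to 0 without Stat5a-/- 1, without Stat5a-/- 2, without Stat5a-/- 3 or without Stat5ab+/null 1, to 1 without Stat5ab+/null 2 and to 2 without Stat5ab+/null 3. Each p-value measures only the spread between these mice.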

How the data were processed

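The authors deposited log2 signals per probe set of 12 arrays, made with RMA and Partek per the submitters' processing notes. Neither versions nor settings of these are given in the sources used here. The split, the 27 lists (425 genes) and the tests were chosen with earlier results of these data known. Of 45101 probe sets the platform annotation gave 34945 a single gene, 932 several genes and 9160 no gene, besides 64 controls. A probe set was kept if its mean over the 12 arrays reached the 30th percentile (log2 6.04), and the one with the highest mean stood for its gene (14198 genes). A list member without such a probe set was not analysed here. Genes named were the 4 markers, the 20 largest higher and 15 largest lower differences without overlap and of 1 sign in both genotypes, up to 6 members per list, all B cell and venule members, and called genes. Slopes on Blk and genotype differences came from limma 3.58.1, run in R 4.3.3 (2-sided, Benjamini-Hochberg over all genes). Both fits were first run on simulated data with independent noise, where only the median size of planted effects was checked. That run does not show how many true effects or false calls these few arrays give. Alternatives were the filter, probe set choice, scaling, variance, covariates, marker and each array left out. The number of arrays limits the precision.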

Additional observations from a re-analysis of the deposited data

Results flagged for a closer look

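In 7 of the 210 named genes (3.33%) the rich and poor arrays separated in opposite directions within the 2 genotypes, as they did in 1322 of all genes (9.31%). With 1 array against 2 in each genotype, the difference between genotypes was not tested. Within Stat5a-/- and within Stat5ab+/null respectively, the rich minus poor difference was 1.16 and -0.49 for Ly6d, a surface protein of B cells and of epithelium, and -0.33 and 0.48 for Wnt4, a signal of hormone-sensing luminal cells. It was -0.35 and 0.16 for Slco2a1, 0.18 and -0.16 for Ido1, and 0.16 and -0.19 for Dio2. Ppargc1a had -0.11 and 0.21, and Rpl7 had 0.0097 and -0.13.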

How the results depend on the processing

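No paired analysis was possible because the labels give the genotypes no shared replicate numbers. No called gene changed direction under the alternatives run. The count of genes higher in rich arrays by at least 1 without overlap, 150, was 97 with a filter at the 50th percentile, 301 within Stat5a-/- alone and 248 with the 2 arrays of highest Blk set against the other 4. With 1 array left out it ran from 145 to 275. The count of lower genes, 16, was 72 within Stat5a-/-, 42 within Stat5ab+/null, 0 with the 2 arrays of highest Blk against 4 and 7 with the mean of Cd79a, Cd79b and Ms4a1 as a continuous term, and 12 to 43 with 1 array left out. Calls of the slope on Blk, 0, ran from 0 to 36 with 1 array left out. Calls of the genotype difference with the class, 4, were 2 with no class term and 0 to 2 with 1 array left out. The cause of these shifts was not tested, beyond the fewer arrays or genes that some settings hold. Over 17 alternatives the median of 21 of the 27 lists kept its sign; it changed for lymphatic endothelium in 4, granulocyte and mast cell in 7, hormone-sensing luminal in 7, skin keratinocyte in 3, and white adipocyte and ribosomal protein in 1 each. Scaling moved the median difference of all genes from 0.019 to 0.0186 or 0.0245.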
